A study of Rattus norvegicus with 82 samples.

Results

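Heat shock proteins and chaperones were followed in cardiac myocytes of 41 rats, taken separately from the right (RV) and left ventricle (LV). The members are the genes whose symbol starts with Hspa to Hspe, Hsph, Hsp and a digit, Dnaj, Cct2 to Cct8 or is Bag1 to Bag6, leaving out Hspg2 and Hspbap1, with a mean raw count of at least 10 over the 82 libraries. Of the 17337 genes in the table, 86 symbols matched and 77 were members, all of which passed the filter on low counts and were tested. By family they were 13 Hspa genes, 7 small heat shock proteins (Hspb), 3 Hsp90 genes, 4 Dnaja, 11 Dnajb and 23 Dnajc genes, 7 Cct genes, 5 Bag genes, and the 4 genes Hspbp1, Hspd1, Hspe1 and Hsph1. The remaining 9 symbols fell under the minimum, with mean counts of 0 (Dnajb8), 0.024 (Cct8l1), 0.293 (Dnajc5g), 1.34 (Bag5), 2.27 (Dnajc5b), 3.2 (Dnajc6), 4.95 (Hspb9), 6.34 (Dnajb7) and 8.62 (Cct6b). Just inside it were Dnajb3 with 13.6 and Dnajb13 with 23.1.

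The rats were the F1 generation of female Wistar Kyoto and male Lewis animals of both sexes and had been given a pulmonary artery clip (PAB) that puts pressure load on the RV, an aortic clip (AOB) that puts it on the LV, or a sham operation. The letter H stands for the compensated stage and F for failure. By the labels, the H stage (7 sham, 6 PAB and 6 AOB animals) was reached at 11 weeks of age, 7 weeks past surgery. At the F stage, 9 Sham-F and 7 AOB-F animals were 31 weeks old and 26 weeks past surgery, and 6 PAB-F animals were 28 weeks old and 22 weeks past surgery, so the PAB-F rats were the younger ones. These ages are as labelled. They are at odds with the age at surgery in the treatment protocol and in the study's methods, so the ages themselves are uncertain. Each animal gave 1 RV and 1 LV library of cells freed with collagenase II and enriched by centrifugation, and replicate numbers below name the animal. Replicates are separate animals, so p-values rest on the spread between animals. The fit shares 1 estimate of that spread over all groups, although the members spread more in LV than in RV groups. A p-value thus does not measure the spread of the compared groups alone. Except where stated, the fit also treats the RV and LV library of 1 animal as independent.

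Total counts per library ranged from 6675287 to 19665439 with a median of 13074485, and members held 0.868 to 1.49% of them. Markers of ventricular cardiomyocytes (9 genes, among them Myh6 and Tnnt2) summed to 53924 to 156060 CPM (counts scaled to library size). Other cells were represented too, with 692 to 4362 CPM for 7 endothelial genes, 253 to 3023 for 10 fibroblast genes, 995 to 1644 for 7 mural cell genes and 16.9 to 218 for 8 macrophage genes. None of these marker genes was at 0 in every library. On genes other than members, the leading component of log2 CPM took 46.9% of the variance, and 21 of the 22 LV libraries of the F stage lay below every RV library on it. So did 4 of the 19 LV libraries of the H stage, namely Sham-H 4 and 5, PAB-H 2 and AOB-H 6, and the exception among the older ones was LV PAB-F 5. The LV libraries AOB-F 7, AOB-H 6, PAB-H 2 and Sham-H 4 had a median r with their own group under 0.94, and the number of members called without these 4 libraries is given below where it differed. In RNA from a whole preparation, fewer cells of a type and less RNA per cell cannot be told apart.

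Chaperones bind unfolded or newly made proteins and keep them from aggregating. HSP70 proteins, encoded by the Hspa genes, work in cycles that J-domain proteins (Dnaj genes) start and that nucleotide exchange factors such as Hsph1 and the Bag proteins end. HSP90 and the CCT ring receive clients downstream, the CCT ring folding actin and tubulin among others, while small heat shock proteins hold unfolding filament proteins without ATP and are abundant in heart muscle. The transcription factor Hsf1 drives many of these genes through heat shock elements, repeats of the letters GAA and TTC, and the endoplasmic reticulum (ER) chaperones are driven by unfolded protein in the ER through an ER stress element.

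Promoter windows of 300 bases (250 before and 50 after the start, RefSeq, GRCr8) were matched for 62 of the 77 members. The heat shock element of 3 units (GAANNTTCNNGAA or TTCNNGAANNTTC, each the other's reverse complement over both strands) occurred in 6 of them, 9.68%, against 0.736% of all 27457 promoters. These were Cct4, Dnaja1, Hspa8, Hspd1, Hspe1 and Hsph1. The element of 2 units (GAANNTTC or TTCNNGAA), which every 3-unit match also holds, was in 19 of 62 (30.6%) and in 15.4% of all. The ER stress element (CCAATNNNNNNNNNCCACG, or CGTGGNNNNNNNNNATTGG on the other strand) was in Dnajc3, Hsp90b1 and Hspa5, 4.84% of the members and 0.0765% of all promoters. The stretches below are those of the 7 members in which a 3-unit heat shock element or an ER stress element lies wholly before the start. This leaves out Cct4 and Dnaja1, where none does. The windows of Hspa8 and Hsp90b1 held 2 matches each, of which 1 is shown. Capitals mark the matched element, and Hspd1 and Hspe1 are transcribed apart from each other from 1 shared stretch.
Hspa8, chr8:50080449-50080481, + strand: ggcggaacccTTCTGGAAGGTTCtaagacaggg
Hsph1, chr12:10427322-10427354, + strand: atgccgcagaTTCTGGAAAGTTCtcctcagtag
Hspd1, chr9:64084252-64084287, - strand: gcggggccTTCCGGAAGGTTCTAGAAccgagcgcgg
Hspe1, chr9:64084252-64084289, + strand: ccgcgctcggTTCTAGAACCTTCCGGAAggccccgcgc
Hspa5, chr3:38452963-38453001, + strand: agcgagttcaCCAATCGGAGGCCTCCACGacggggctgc
Hsp90b1, chr7:23012337-23012375, - strand: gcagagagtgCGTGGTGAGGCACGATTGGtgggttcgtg
Dnajc3, chr15:102432524-102432562, + strand: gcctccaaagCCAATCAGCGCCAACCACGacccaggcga
A match is a run of letters and says nothing of binding. The windows of Dnajb1 and Hspb1 held the element of 2 units only, and that of Hspa1a held none of the 3 motifs.

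Levels per length were compared between members in FPKM (fragments scaled to gene length and library depth, as deposited). Small heat shock proteins led, with means over the 82 libraries of 939 ± 218 (SD) for Hspb7, 629 ± 160 for Hspb6, 444 ± 269 for Hspb1, 330 ± 63.4 for Hspb8 and 239 ± 73.6 for Hspb2. The cytosolic HSP90 gene Hsp90ab1 ranked among them at 569 ± 107. The ER chaperone Hspa5 followed with 214 ± 75, the mitochondrial HSP70 gene Hspa9 with 204 ± 88.1, the HSP70 cochaperone gene Bag3 with 163 ± 32.7 and the constitutive HSP70 gene Hspa8 with 144 ± 34. These SDs are taken over all 82 libraries, so they hold the differences between ventricles and groups. They exceed most gaps between neighbours in the order, and whether neighbouring ranks differ was not tested. At the other end Hsp90aa1, the heat-inducible HSP90 gene, had the lowest mean of the 77 members (0.484), followed by Dnajb13 (0.771) and Dnajb3 (0.999). Raw counts of Hsp90aa1 were 9 to 100 per library. How its reads were assigned by the annotation was not examined, so its level, differences and relations given below are uncertain.

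The largest differences were between the ventricles of older animals. In Sham-F hearts 66 of the 77 members differed between RV and LV at an adjusted p under 0.05 (edgeR quasi-likelihood test, Benjamini-Hochberg over 11954 genes), against 74.3% of all genes, so that the share among the members lies near a high background. Of these, 44 members were higher in the RV (35.6% of all genes) and 22 lower (38.6%). The median log2 difference, RV minus LV, was 0.454 over the members and -0.069 over all genes. Libraries of the groups did not overlap for 44 members, 34 higher and 10 lower in the RV, and for 41.8% of all genes. Of all 11954 genes 2676 were higher and 2321 lower in the RV in this way.

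All 7 Cct members were higher in the RV of Sham-F hearts, with a median log2 difference of 1.29. Cct8 had normalized counts of 2030 to 2836 in the RV, with a median of 2294, and of 316 to 956 in the LV, with a median of 459. The groups did not overlap, the RV was above the LV in 9 of 9 animals, and the difference was 2.21 on the log2 scale (SE 0.23, adjusted p = 2.3e-13). Cct6a had 1189 to 1574 counts (median 1387) in the RV and 282 to 604 (median 332) in the LV, a difference of 1.91 (SE 0.19). Cct3 was at 2171 to 2861 (median 2580) against 1004 to 1660 (median 1105). Cct7 showed the smallest difference of these 4 genes, 0.59 (SE 0.08), with 1603 to 2009 counts against 1052 to 1500. In each of these genes every RV library was above every LV library. Tcp1, which encodes the remaining ring subunit and is no member by its symbol, had mean counts of 1399 and 403 and a difference of 1.79 (SE 0.20, adjusted p = 1.5e-12).

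ER and mitochondrial chaperones lay on the same side. Of 12 ER chaperones 9 were higher and 1 lower in the RV (median 0.95). Hsp90b1, the HSP90 protein of the ER, had 3239 to 5393 counts (median 4346) in the RV and 753 to 2560 (median 820) in the LV, where replicate 3 was the highest. It differed by 2.06 (SE 0.23, adjusted p = 2.7e-12), without overlap. Hspa5, the HSP70 protein of the ER, had 7846 to 12990 counts (median 9611) in the RV and 2795 to 6018 (median 3527) in the LV, again without overlap (1.33, SE 0.17). Of 7 mitochondrial chaperones 5 were higher and 1 lower (median 0.42). Hspd1, which forms the mitochondrial chaperonin, had 4770 to 6540 counts (median 5458) against 950 to 2434 (median 1351), a difference of 1.95 (SE 0.22, adjusted p = 2.1e-12) that held in 9 of 9 animals. Its cofactor gene Hspe1, transcribed from the other side of the same stretch shown above, differed less, with means of 498 and 373 (0.42, SE 0.14, adjusted p = 0.0056), overlapping libraries and the RV above the LV in 8 of 9 animals. Hspa9 had 8796 to 12230 counts (median 10570) against 2160 to 5057 (median 3010) and differed by 1.74 (SE 0.21).

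All 3 HSP90 genes, Hsp90b1 of the ER included, were higher in the RV (median 1.01), and of the 14 genes of the HSP70 family, with Hsph1, Hspa5 and Hspa9 among them, 8 were higher and 4 lower (median 0.89). Hspa8 had 12491 to 17926 counts (median 15839) in the RV and 6313 to 10330 (median 7686) in the LV. No LV library reached the RV range, and the difference was 1.01 (SE 0.11, adjusted p = 5.1e-13). Hsp90ab1 had 18125 to 24567 counts (median 19289) against 10576 to 17921 (median 12189), which came close at their edges without overlap (0.64, SE 0.10). J-domain genes were mixed. All 4 of class A were higher, class B had 5 higher and 4 lower (median -0.04), and class C had 13 higher and 6 lower (median 0.45). Dnajb4, a partner of HSP70, was among the higher ones with means of 1563 and 434 (1.85, SE 0.21, adjusted p = 3.3e-12), and so was Dnajc28 with 416 to 533 counts against 79.4 to 173 (2.07, SE 0.21). Of 5 Bag genes 1 was higher and 2 lower.

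Members that went the other way included the inducible HSP70 genes Hspa1a and Hspa1b, Dnajb1 and small heat shock proteins. The heat-inducible genes did not share 1 direction. Higher in the RV were Hspd1 (1.95), Dnajb4 (1.85), Hsph1 (1.22) and Hspa4l (1.11). So were Hspa8 (1.01), Hsp90aa1 (1.01), Dnaja1 (0.95) and Hspe1 (0.42). Beside Hspa1a, Hspa1b, Dnajb1 and Hspb1, the lower ones were Bag3 (-0.35) and Hspb8 (-0.34). Hspa1a and Hspa1b are nearly identical, so the split of reads between them is uncertain. Hspa1b had 60.9 to 169 counts (median 108) in the RV of Sham-F hearts and 188 to 1978 (median 462) in the LV. The ranges did not overlap, the RV was above the LV in 0 of 9 animals, and the difference was -2.34 (SE 0.41, adjusted p = 5.7e-07). Hspa1a had 280 to 413 counts (median 341) against 525 to 3367 (median 937), with a difference of -1.64 (SE 0.27). Dnajb1, the inducible partner of HSP70, had 370 to 614 counts (median 477) against 583 to 3780 (median 1022). It differed by -1.54 (SE 0.22, adjusted p = 3.9e-09) with overlap at the edge, and LV replicate 9 held the maximum of all 3 of these genes. Of 7 small heat shock proteins 5 were lower and 1 higher in the RV (median -0.43). The higher one was Hspb11 (0.69), which carries the family's name but is known as a part of the transport machinery of cilia. Hspb1, which protects actin filaments, had 2546 to 4386 counts (median 3698) against 5035 to 8129 (median 6918), without overlap (-0.88, SE 0.20, adjusted p = 6.3e-05). Hspb7, the most abundant of them, had 14451 to 23447 counts (median 18954) against 15025 to 37268 (median 25229), largely overlapping (-0.43, SE 0.13, adjusted p = 0.0033). Hspa12b, a distant HSP70 relative known from endothelial cells, had 312 to 699 counts (median 560) against 2182 to 3027 (median 2853). Its groups did not overlap, and the difference was -2.31 (SE 0.23, adjusted p = 3.7e-14).

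**Figure D1:**
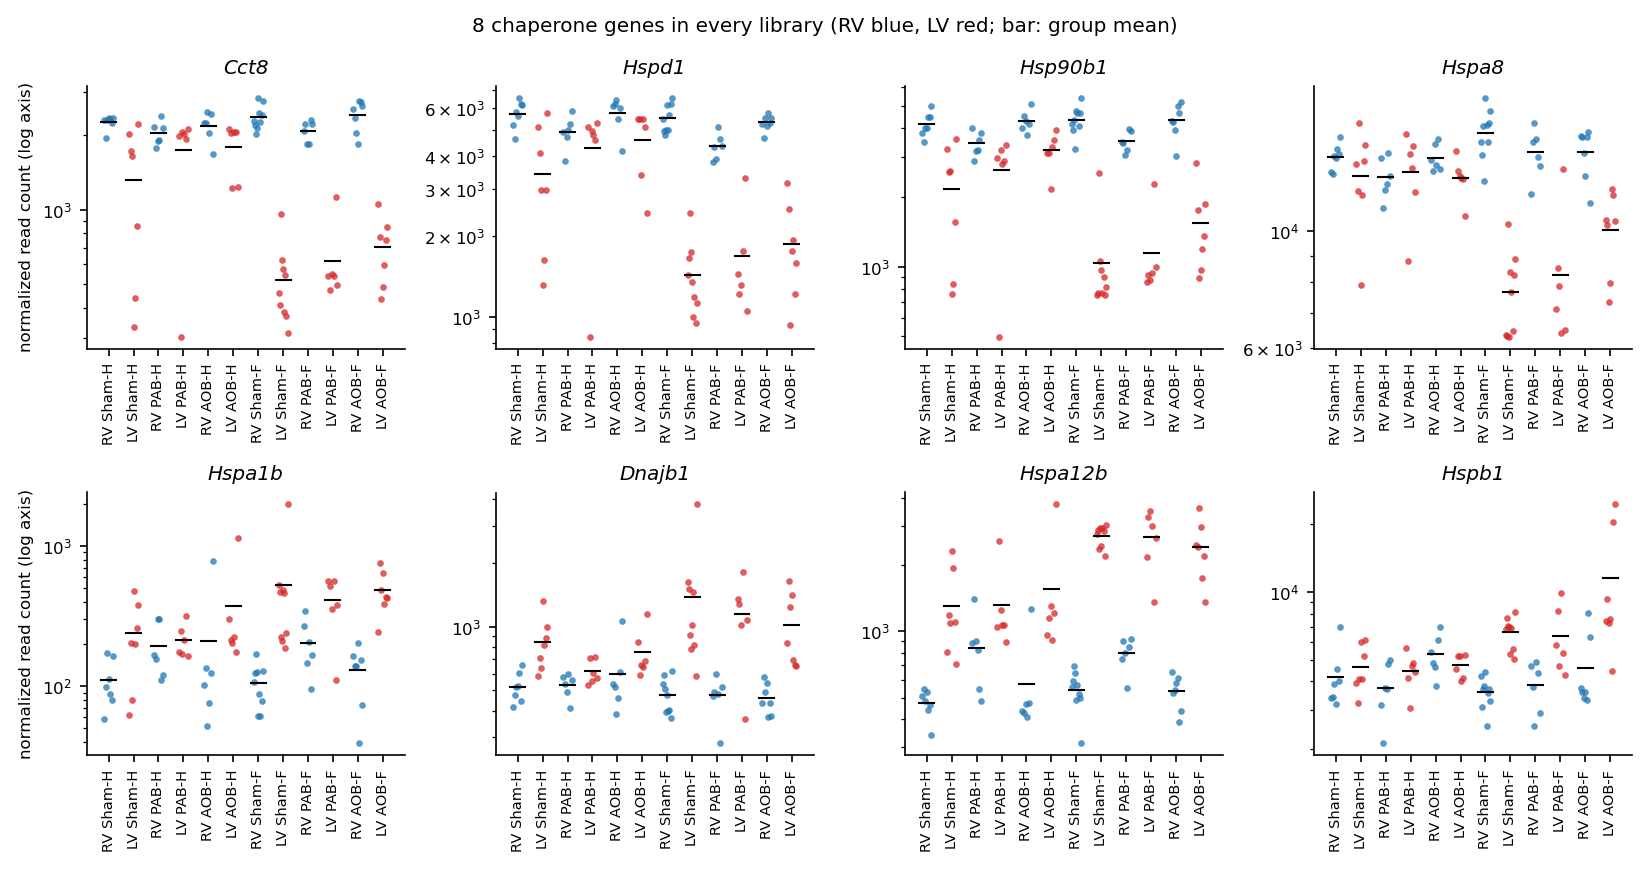
Normalized counts (log axis) of 8 members in every library by group, with RV libraries in blue, LV libraries in red and the group mean as a bar. In the F groups Cct8, Hspd1, Hsp90b1 and Hspa8 had lower means in the LV than in the RV, and Hspa1b, Dnajb1, Hspa12b and Hspb1 higher ones, and LV Sham-F 9 is the highest point of Hspa1b and Dnajb1.

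**Figure D2:**
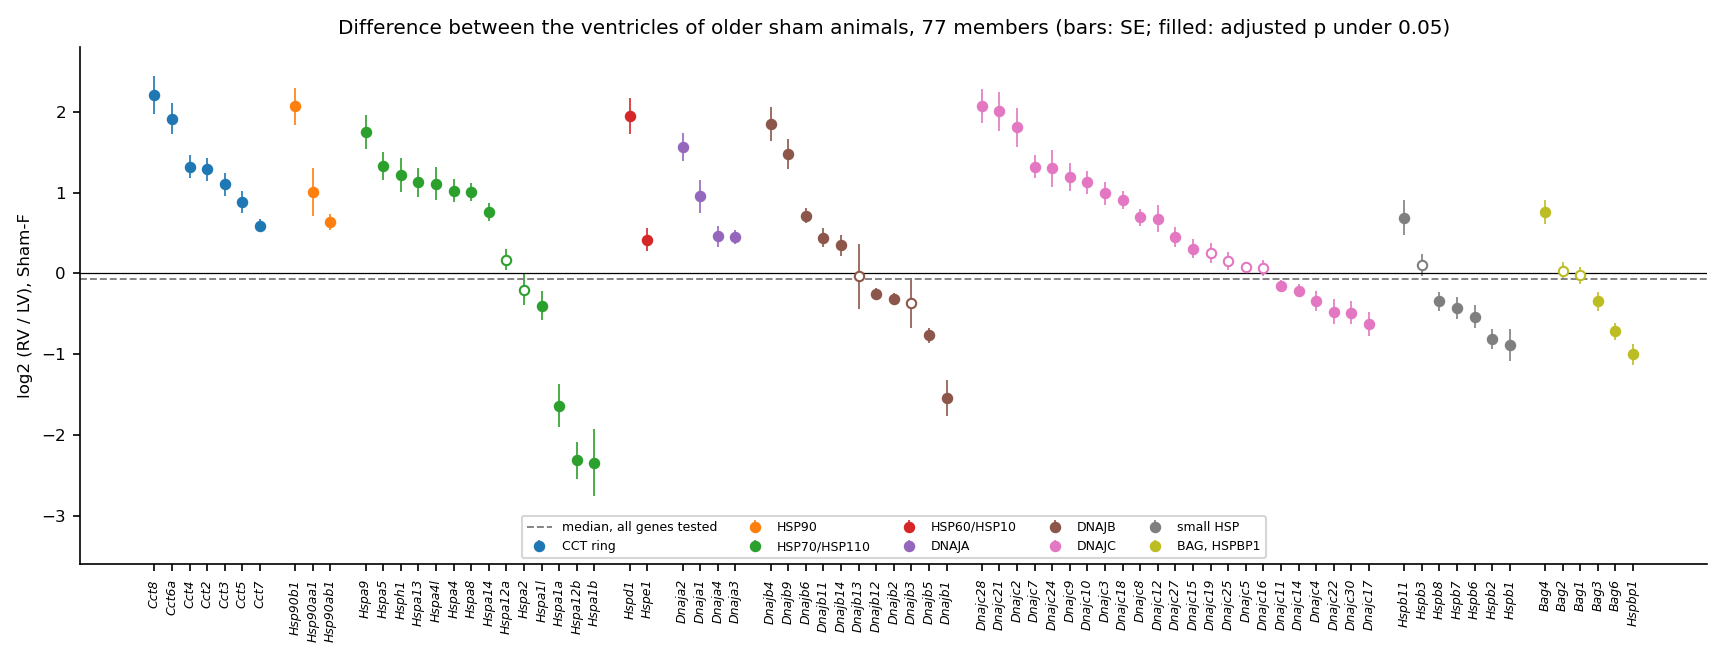
Difference between RV and LV in Sham-F hearts for the 77 members, as log2 RV over LV with the SE of the fit as bars, coloured by family, filled at an adjusted p under 0.05, with the median of all genes tested (-0.069) as a dashed line. The Cct ring and HSP90 genes are all above 0, up to 2.21 for Cct8, and Hspa1a, Hspa1b, Hspa12b, Dnajb1 and 5 of the 7 small heat shock proteins are called below it.

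Other signs moved with this difference. The 7 endothelial markers summed to 692 to 1088 CPM in the RV and 1916 to 3559 in the LV of Sham-F hearts, and 6 of 7 were lower in the RV. Fibroblast markers had medians of 349 and 922 CPM, with 6 of 9 tested genes lower in the RV, and macrophage markers 30.5 and 59.1 CPM, with 4 of 8 lower. Of 7 mural cell markers 4 were lower and 1 higher. Cardiomyocyte markers summed to 115090 to 154140 CPM in the RV and 79452 to 107270 in the LV, with 4 of 9 higher and 2 lower. The 13 immediate early genes, which respond within minutes to handling of cells, had medians of 4299 and 6980 CPM, and 10 were lower in the RV. The part of these in the differences of the members was not tested.

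Of 42 other genes of the pathway that were tested, 24 were higher and 10 lower in the RV of Sham-F hearts (median 0.34). Hsf1 was lower, with mean counts of 627 and 957 (-0.61, SE 0.08, adjusted p = 1.5e-10), and its relative Hsf2 was higher with 665 and 241 (1.47, SE 0.18). Cacybp was the highest of those named here (1.97, SE 0.22), and Serpinh1, the collagen chaperone of the ER, was lower (-1.15, SE 0.13).

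The difference between the ventricles was also measured in failing animals of both models, which share no animals with each other. In PAB-F hearts 55 members were called, 40 higher in the RV and 15 lower, where 61.1% of all genes were called (32.1% higher, 29% lower). In AOB-F hearts 60 were called, 43 higher and 17 lower, against 67.1% of all genes (32% higher, 35.1% lower). In these 3 older conditions 36 members were higher in the RV each time, 12 were lower each time and 0 changed sides between calls. How many of all genes did so was not counted, so these numbers are not set against that background. Cct8 had 1839 to 2306 counts in RV PAB-F and 471 to 1120 in LV PAB-F (1.76, SE 0.28, adjusted p = 3.7e-07), and 1844 to 2758 in RV AOB-F against 435 to 1057 in LV AOB-F (1.77, SE 0.26, adjusted p = 1.6e-08). The ventricles did not overlap in either condition. Without the 4 libraries that stand apart the numbers called were 59 in PAB-F (7618 of 11983 genes) and 61 in AOB-F (8216 of 11983 genes). Hspa1b did not pass the test in PAB-F (-1.02, SE 0.48, adjusted p = 0.058), with means of 204 and 415, although the LV was the higher one in each of the 6 animals, and it did in AOB-F (-1.88, SE 0.46, adjusted p = 0.00023).

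At the H stage the ventricles differed less. In Sham-H hearts 15 members were called, 12 higher and 3 lower in the RV, against 21% of all genes. Hsp90b1 had 3487 to 4970 counts (median 3996) in the RV and 760 to 3587 (median 2567) in the LV (0.94, SE 0.26, adjusted p = 0.0072), and Cct8 had 1957 to 2354 (median 2309) against 334 to 2218 (median 1654; 0.78, SE 0.25, adjusted p = 0.022). Both overlapped. The LV minimum of both genes was replicate 4, 1 of the libraries that stand apart. The number called was 4 without LV Sham-H 4 and 5 without LV Sham-H 5, but 24 and 27 for LV Sham-H 1 and 7. Without the 4 libraries that stand apart it was 12, beside 1442 of 11983 genes. The calls of Cct8, Hspd1 and Dnajc28 were lost without either of LV replicates 4 and 5, and that of Hspa9 also without LV replicate 6. Lower in the RV were Hspa12b (-1.46, SE 0.25, adjusted p = 5.2e-05), Dnajb1 (-0.71, SE 0.25, adjusted p = 0.033) and Dnajb5 (-0.54, SE 0.10, adjusted p = 0.00018). The call of Dnajb1 was lost in 7 of 14 omissions, those of LV replicates 4, 5 and 6 and RV replicates 1, 2, 4 and 6. With the animal as a block, which uses that both ventricles came from 1 heart, 28 members were called in Sham-H (32.5% of all genes).

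In AOB-H hearts 1 member was called, Hspa12b, against 7.98% of all genes, and without RV AOB-H 6 there were 3. It had 409 to 1267 counts in the RV and 917 to 3744 in the LV (-1.41, SE 0.27, adjusted p = 0.00031), and both maxima were from animal 6. Leaving out 1 library moved the difference between -1.80 and -0.94 with the call kept. Fitted on the 2 groups alone Hspa12b did not pass (-1.43, adjusted p = 0.057), and the 1 member called there was Hspa5, beside 475 of 10869 genes. With the animal as a block 5 were called (13.7% of all genes). The 7 endothelial markers summed to 774 to 2482 CPM (median 861) in RV AOB-H and 1365 to 4321 (median 1570) in LV AOB-H. Their part in the difference of Hspa12b was not tested. In PAB-H hearts 0 members were called by edgeR and 0 by DESeq2, with 2 at an unadjusted p under 0.05, against 0.125% of all genes called, and with the animal as a block 1 was, Hspa12b (1.51% of all genes).

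Age was compared in sham animals, in which the stage stands for both age and time after surgery. The study collected its samples at different times, so the harvest of the cells may go with the stage too. These cannot be told apart, and change with age below means all of them together. In the RV 0 members differed between Sham-F and Sham-H by edgeR and by DESeq2, with 1 at an unadjusted p under 0.05, and 0.0502% of all genes were called. Cct8 had means of 2377 and 2261 counts there, Hspd1 of 5529 and 5740, and Hspa1b of 105 and 110. In the LV 50 members were called, 14 higher and 36 lower in the older animals, against 57.4% of all genes (27.8% higher, 29.6% lower). Without the 4 libraries that stand apart 56 were called (7720 of 11983 genes). The median log2 change was -0.326 over the members and 0.035 over all genes. Libraries of both ages did not overlap for 1 member, and for 1.68% of all genes.

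All 7 Cct members were lower in the older LV (median -0.93). Cct8 had 334 to 2218 counts (median 1654) in LV Sham-H and 316 to 956 (median 459) in LV Sham-F, a change of -1.36 (SE 0.24, adjusted p = 3.8e-06). The ranges overlapped, with LV Sham-H 4, 5 and 6 inside the range of the older animals. Hspd1 had 1323 to 5792 counts (median 2990) against 950 to 2434 (median 1351), a change of -1.25 (SE 0.23, adjusted p = 5.9e-06). Hspa8 had 7923 to 16071 counts (median 13416) against 6313 to 10330 (median 7686). Its change of -0.73 (SE 0.11) had the lowest adjusted p among members, 6.9e-07. Of 12 ER chaperones 9 were lower and 1 higher, and Hsp90b1 changed by -1.06 (SE 0.24). Dnajc2, which acts at the ribosome, changed by -1.12 and Dnajc21, which acts in ribosome assembly, by -1.14.

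Of the 7 small heat shock proteins 3 were higher and 0 lower in the older LV, namely Hspb2 (0.67, SE 0.13, adjusted p = 2.7e-05), Hspb1 (0.50, SE 0.21, adjusted p = 0.038) and Hspb6 (0.40, SE 0.15, adjusted p = 0.019). The call of Hspb1 was lost in 10 of 16 omissions of a library (all but LV Sham-F 5, 7 and 8 and LV Sham-H 4, 6 and 7), and that of Hspb6 without LV Sham-F 2 or LV Sham-H 1. Hspa12b was higher as well, with 712 to 2296 counts (median 1099) in Sham-H and 2182 to 3027 (median 2853) in Sham-F (1.05, SE 0.24, adjusted p = 0.00015). Of 14 heat-inducible genes 4 were higher and 5 lower. Hspa1b had 62.7 to 478 counts (median 205) against 188 to 1978 (median 462), with a change of 1.16 (SE 0.42, adjusted p = 0.016). Hspa1a changed by 0.87 (SE 0.28) and Dnajb1 by 0.71 (SE 0.23). These 3 calls rested on LV Sham-F 9, without which the changes were 0.55, 0.42 and 0.36 and none passed the test (highest adjusted p 0.22). LV Sham-F 9 and LV Sham-H 7 were each the highest of their group in 7 of the 14 heat-inducible genes. Among other members Dnajb13 (1.19), Dnajb3 (0.79) and Dnajc17 (0.77) were higher. Dnajb13 and Dnajb3 had low counts, and their calls were lost without LV Sham-F 5 or LV Sham-H 3, and without LV Sham-F 1, 7 or 8 or LV Sham-H 2, 4 or 7.

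**Figure D3:**
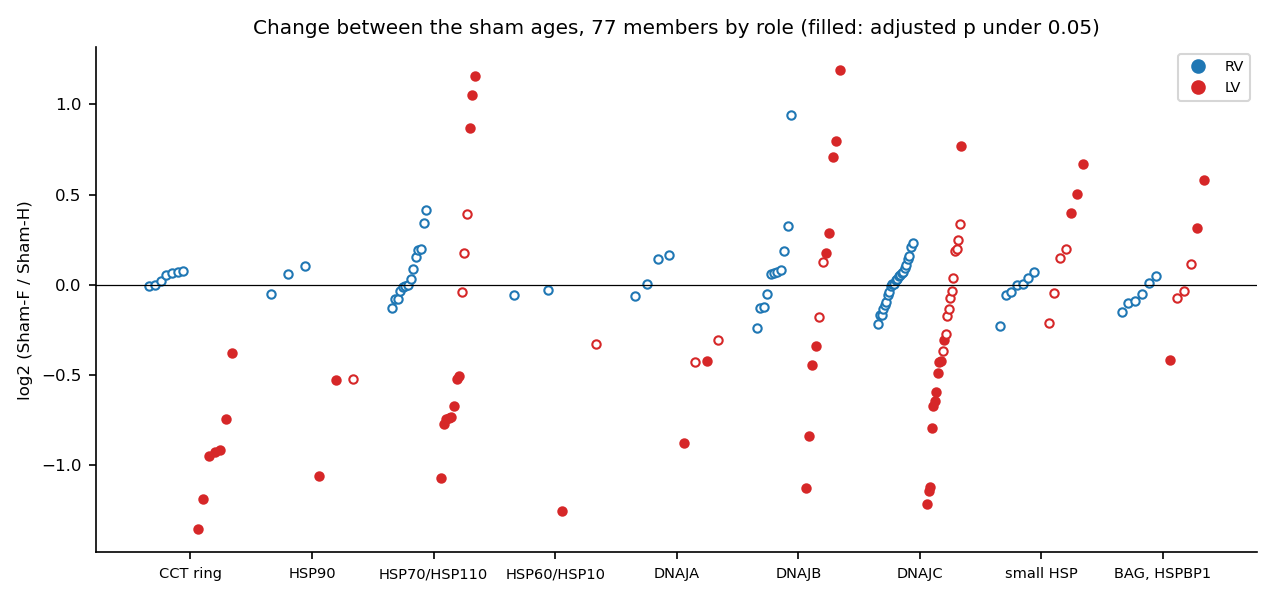
Log2 change from Sham-H to Sham-F for the 77 members by family, RV in blue and LV in red; each point is 1 member, filled at an adjusted p under 0.05. No RV point is filled, whereas LV points of the Cct ring run from -1.36 to -0.38 and are all filled.

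Other genes of the pathway in the older LV were 11 higher and 20 lower of 42 (median -0.29), with Hsf1 higher (0.42, SE 0.08) and Tcp1 lower (-1.14, SE 0.21). Beside this, 6 of 13 immediate early genes, 4 of 9 fibroblast, 3 of 7 endothelial, 4 of 7 mural cell and 4 of 8 macrophage markers were higher in LV Sham-F, and of 9 cardiomyocyte markers 2 were higher and 4 lower. Summed endothelial levels were 1142 to 2878 CPM in LV Sham-H and 1916 to 3559 in LV Sham-F. Their part was not tested.

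The change with age itself differed between the ventricles in 40 members, 31 of them with a more positive change in the RV and 9 with a more negative one, against 41.6% of all genes (23% and 18.6%). Without the 4 libraries that stand apart 48 members were called (6343 of 11983 genes). Cct8 (1.43, SE 0.34, adjusted p = 0.00097), Cct6a (1.24, SE 0.28), Hspd1 (1.20, SE 0.32), Dnajb4 (1.45, SE 0.31) and Hspa8 (0.89, SE 0.16, adjusted p = 0.0002) were among the former. Hspa1a (-0.99, SE 0.40, adjusted p = 0.037), Hspa12b (-0.85, SE 0.33), Dnajb1 (-0.83, SE 0.33), Hspb1 (-0.73, SE 0.30) and Hspb2 (-0.71, SE 0.19) were among the latter. Of 32 omissions of 1 library, 11 ended the call of Hspa1a, 7 that of Hspa12b, 10 that of Dnajb1, 17 that of Hspb1 and 19 that of Hsph1 (0.74, adjusted p = 0.048), LV Sham-F 9 being among them for Hspa1a, Dnajb1 and Hspb1.

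Few members were called upon banding in the fit over all groups. In 8 comparisons, each of 1 banded group with sham libraries of the same ventricle and stage, 62 of the 77 members were called in none, and 1, Cct7, in more than 1. How many of all genes were called in none was not counted, so these numbers are not set against that background. The share of all genes is given below for each comparison. In the RV loaded by PAB, 1 member was called at the H stage (4.5% of all genes) and 3 at the F stage (11.1%). Hspa12b had 339 to 547 counts (median 484) in RV Sham-H and 484 to 1404 (median 855) in RV PAB-H, which overlapped at the edge (0.83, SE 0.26, adjusted p = 0.047). The call ended without any 1 of RV PAB-H 1, 2, 3 or 4 or of RV Sham-H 1, 2, 3, 5, 6 or 7, which makes 10 of 13 omissions. Beside it, endothelial markers summed to 801 to 1126 CPM in RV Sham-H and 944 to 1980 in RV PAB-H with 1 of 7 called higher, and 8 of 9 fibroblast and 1 of 7 mural cell markers were higher. Their part in the change of Hspa12b was not tested.

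At failure, Hspa1l, an HSP70 gene known from testis that lies beside Hspa1a, had 54.9 to 104 counts (median 78.2) in RV Sham-F and 69 to 196 (median 130) in RV PAB-F. The groups overlapped, and the change was 0.76 (SE 0.20, adjusted p = 0.0081), and the call was lost without RV PAB-F 2. Dnajb5, a class B J-domain gene, had 713 to 994 counts (median 891) against 829 to 1363 (median 1123), a change of 0.34 (SE 0.10, adjusted p = 0.02) lost without replicate 2, 4 or 5 of the banded animals. Cct7 fell by 0.26 (SE 0.09, adjusted p = 0.045), from 1603 to 2009 counts (median 1723) to 1390 to 1769 (median 1432). Its call was lost in 10 of 15 omissions of a library, all but those of RV PAB-F 4 and RV Sham-F 1 to 4. The number of members called was 0 when RV PAB-F 2 was left out, 1 for RV PAB-F 5 and 5 for RV PAB-F 3. Leaving out the 4 libraries that stand apart gave 6 (2128 of 11983 genes). Hspa1b had a log2 difference of 0.96, which did not pass the test in the fit over all groups (adjusted p = 0.14). The median SD of the members within a group, on the log2 scale, was 0.156 to 0.231 in RV groups and 0.298 to 0.401 in LV groups, and the fit shares 1 estimate of the spread. Fitted on the 2 groups alone, 10 members were called at the H stage (3 higher, 7 lower, 14.9% of all genes) and 18 at the F stage (8 higher, 10 lower, 24.6%). Hspa1a, Hspa1b and Hsp90aa1 were among these 18, so whether they passed at failure depended on the fit. Of 9 fibroblast markers 6 were higher in RV PAB-F, as were 2 of 7 endothelial and 3 of 8 macrophage markers, and their part was not tested.

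In the LV loaded by AOB, 0 members were called at the H stage by edgeR and 0 by DESeq2, with 16 at an unadjusted p under 0.05, against 0.0167% of all genes called. At the F stage 12 were called, 11 higher and 1 lower, against 12.9% of all genes (8.54% higher, 4.35% lower), with a median log2 change of 0.143 over the members and 0.038 over all genes. Of the 7 Cct members 6 were higher (median 0.58). Cct3 had 1004 to 1660 counts (median 1105) in LV Sham-F and 945 to 2941 (median 1861) in LV AOB-F. The maximum came from replicate 7 and the groups overlapped, with a change of 0.67 (SE 0.15, adjusted p = 0.0016). Cct6a changed by 0.74 (SE 0.20), Cct2 by 0.62 (SE 0.15), Cct5 by 0.58 (SE 0.14), Cct4 by 0.56 (SE 0.15) and Cct7 by 0.27 (SE 0.09, adjusted p = 0.027). The calls of Cct2, Cct5 and Cct6a were lost without LV AOB-F 7, a library that stands apart, and that of Cct7 without LV AOB-F 1, 6 or 7. In all these genes the LV AOB-F medians stayed below those of RV AOB-F, which for Cct3 was 2737 and for Cct6a 1591.

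Hspb1 had 5035 to 8129 counts (median 6918) in LV Sham-F and 4445 to 24459 (median 7595) in LV AOB-F. Its range was set by animals 6 and 7, with 20387 and 24459 counts in the LV and 8093 and 6328 in the RV, where the other 5 AOB-F animals had 3297 to 3757. The change was 0.80 (SE 0.21, adjusted p = 0.0073), and the call was lost without either animal's LV library. Hspa8 had 7331 to 12057 counts (median 10481) against 6313 to 10330 (median 7686), a change of 0.39 (SE 0.11, adjusted p = 0.016), and Hsp90ab1 changed by 0.33 (SE 0.11, adjusted p = 0.028). The former call was lost without LV AOB-F 6, and the latter without LV AOB-F 1, LV AOB-F 2 or LV Sham-F 9. Dnajb11, an ER partner of Hspa5, changed by 0.55 (SE 0.13, adjusted p = 0.0028) and Hspa2 by 0.63 (SE 0.20, adjusted p = 0.029). Dnajc22 fell by 0.50 (SE 0.17, adjusted p = 0.033). The call of Hspa2 was lost without LV AOB-F 1 or 2 or LV Sham-F 5, 7 or 8, and that of Dnajc22 without LV AOB-F 1, 5 or 7 or LV Sham-F 6, 7 or 8. Without LV AOB-F 7 the number of members called was 5, without LV AOB-F 4 it was 19, and without LV Sham-F 3 it was 23. Leaving out the libraries that stand apart gave 11 (1424 of 11983 genes). Fitted on the 2 groups alone, 0 members were called by edgeR (0.133% of all genes). In the fit over all groups 24 members had an unadjusted p under 0.05, and DESeq2 over all groups called 12.

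**Figure D4:**
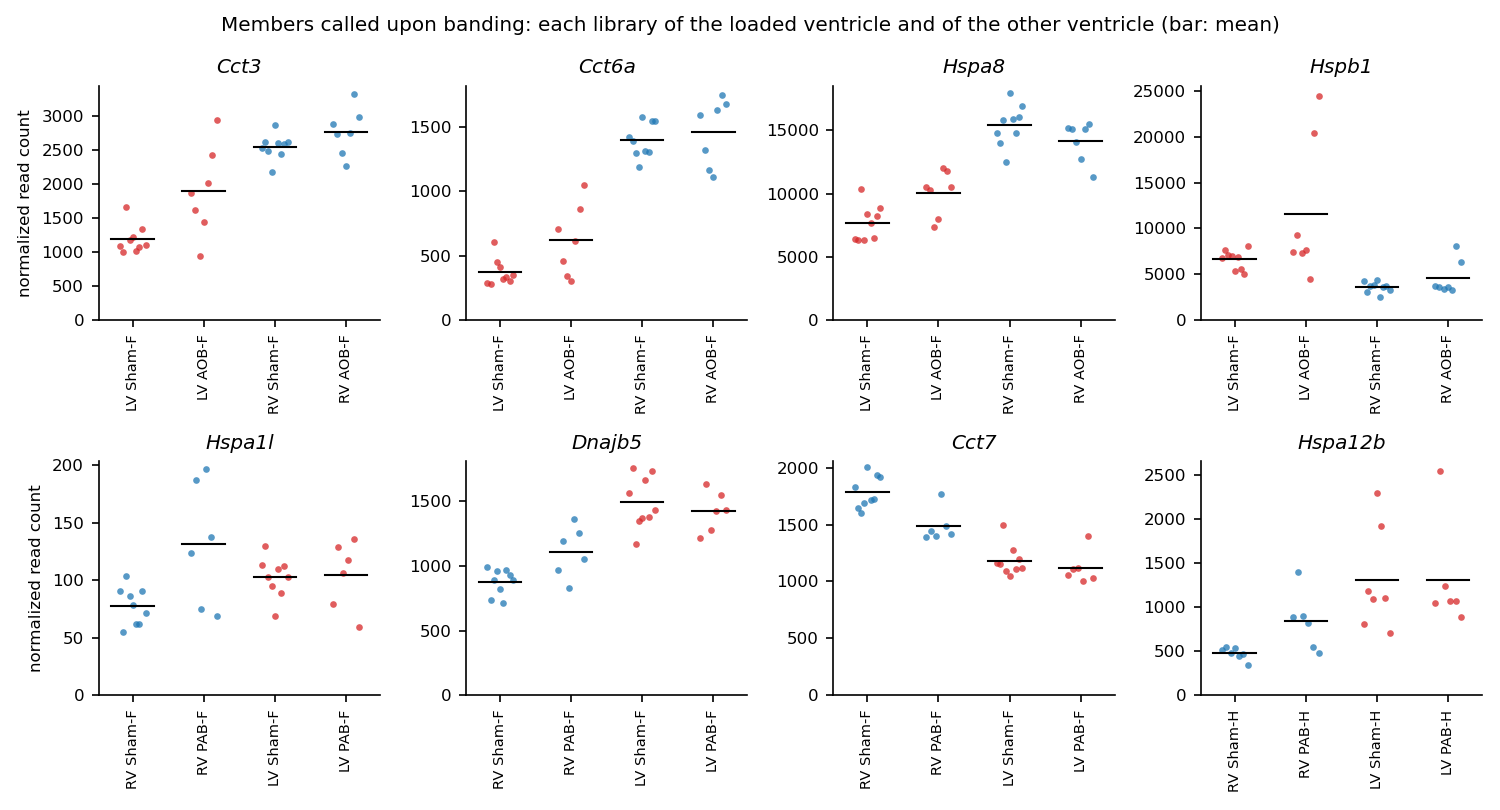
Normalized counts of 8 members called upon banding in every library of the loaded ventricle and of the opposite one, with RV libraries in blue, LV libraries in red and the mean as a bar. In each panel the banded and sham libraries of the loaded ventricle overlap, and 2 libraries of LV AOB-F, at 20387 and 24459, stand above all others for Hspb1.

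Of 42 other genes of the pathway 7 were higher and 2 lower in LV AOB-F, where Fkbp4, an HSP90 cochaperone, fell by 0.55 (SE 0.16, adjusted p = 0.017) and Hsf1 by 0.24 (SE 0.08, adjusted p = 0.041). Beside these, macrophage markers summed to 40.3 to 218 CPM (median 157) in LV AOB-F and 34.5 to 126 (median 59.1) in LV Sham-F, with 4 of 8 called higher, and 2 of 9 fibroblast, 2 of 7 endothelial and 1 of 7 mural cell markers were higher. Their part was not tested.

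In the ventricle opposite to the band 0 members were called in each of the 4 comparisons by edgeR and by DESeq2. The percentages of all genes called were 0% in LV PAB-H, 0% in LV PAB-F, 0% in RV AOB-H and 0.0669% in RV AOB-F, and the members at an unadjusted p under 0.05 numbered 1, 4, 2 and 2. No member passed the test of a difference between the ventricles in the response to failure itself, by edgeR or DESeq2. This held for PAB (0.351% of all genes, 5 members at an unadjusted p under 0.05) and for AOB (0%, 12 members). The largest differences by edgeR were 1.32 for Hspa1b upon PAB (SE 0.62, adjusted p = 0.36) and -0.90 for Dnajb3 upon AOB (SE 0.46, adjusted p = 0.53). The lowest adjusted p values were 0.21 for Dnajb5 upon PAB, with a difference of 0.41 (SE 0.14), and 0.43 for Hspa8 upon AOB, with a difference of 0.51 (SE 0.16).

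Hspa1b, the inducible HSP70 gene, was followed over animals. With the group mean removed, its log2 CPM was set against 13 other genes in each ventricle, 26 relations in all, by permutation of 41 animals within groups. Dnajb1 moved with it most closely, with Pearson's r = 0.73 (Spearman's rho = 0.60) in the RV and r = 0.86 (rho = 0.86) in the LV, both with a permutation p of 1e-05, the smallest the 100000 permutations can give (adjusted p = 0.00013). Without the 2 animals farthest from the median of Hspa1b, r was 0.61 and 0.82. Dnaja1, another J-domain partner, passed in the RV (r = 0.54, rho = 0.53, adjusted permutation p = 0.0046) and did not in the LV (r = 0.36, adjusted permutation p = 0.058). Without the libraries that stand apart it passed in the LV too (r = 0.57, adjusted permutation p = 0.019), and without the 2 farthest animals it did not (r = 0.12, adjusted permutation p = 0.64). Hsp90aa1 passed in the RV (r = 0.53, rho = 0.44, adjusted permutation p = 0.0065) but not without those 2 animals (r = 0.41, adjusted permutation p = 0.054).

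In the LV the immediate early genes Fos (r = 0.69, rho = 0.67, adjusted permutation p = 0.00026) and Egr1 (r = 0.53, rho = 0.62, adjusted permutation p = 0.0065) rose with Hspa1b, and did so without the 2 animals (r = 0.63 and 0.58). In the RV neither passed (r = 0.14 and -0.18); whether the ventricles differ in this was not tested. Hspa5 (r = -0.51, rho = -0.58, adjusted permutation p = 0.0016) and Cct5 (r = -0.40, rho = -0.43, adjusted permutation p = 0.019) ran against it in the LV. Without the 2 animals r was -0.58 and -0.49, and without the libraries that stand apart Cct5 did not pass (r = -0.31, adjusted permutation p = 0.14). Hspd1 (r = -0.46 in the RV, -0.39 in the LV) and Hspe1 (r = -0.44 in the RV) passed with all animals, with adjusted permutation p values of 0.03, 0.027 and 0.028, in the order given. Without the 2 farthest animals r was -0.26, -0.34 and -0.30, and none of these relations passed (adjusted permutation p = 0.27, 0.11 and 0.2).

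**Figure D5:**
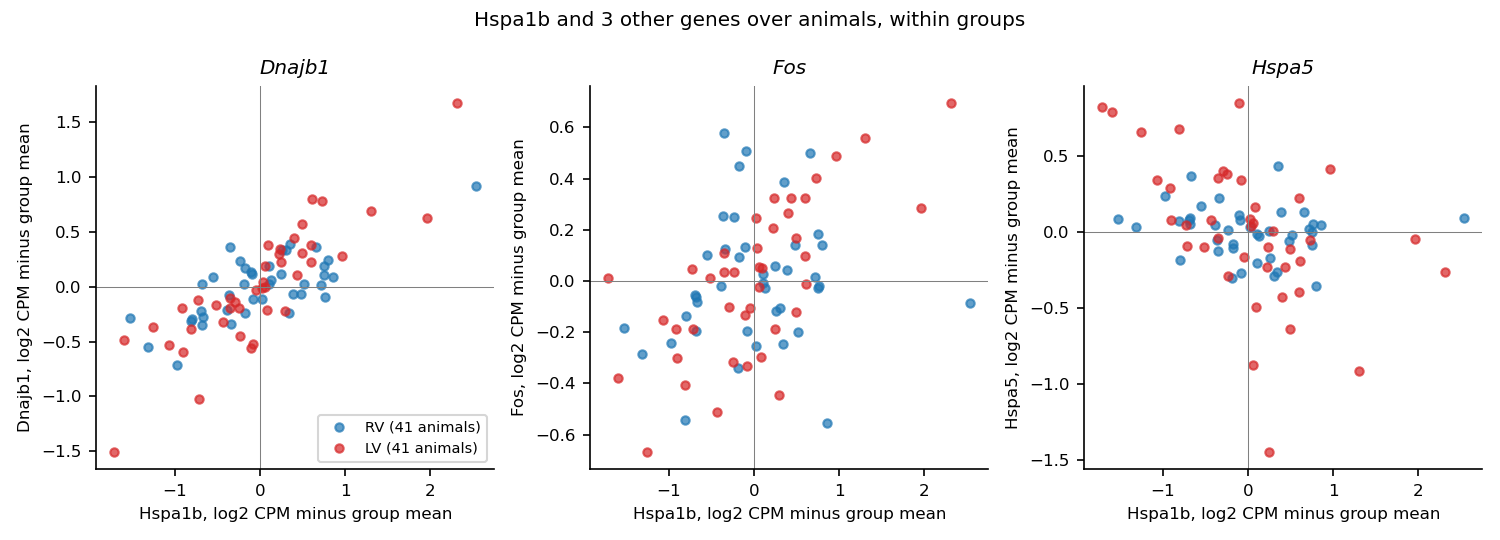
Dnajb1, Fos and Hspa5 against Hspa1b over the 41 animals, RV in blue and LV in red, each axis in log2 CPM minus the group mean. Dnajb1 rises with Hspa1b in both ventricles (r = 0.73 and 0.86), Fos in the LV (r = 0.69), and Hspa5 runs against it in the LV (r = -0.51).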

How the data were processed

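RNA of cardiac myocytes from both ventricles of 41 rats was sequenced by the authors in 82 libraries after depletion of ribosomal RNA. The authors deposited raw read counts per gene, made by trimming with Trim Galore, alignment with STAR and counting with featureCounts (build Rnor6.0), and DESeq2 1.28.1 for normalization. They also deposited normalized counts, a signal value (counts over 1 size factor per library, 0.639 to 1.57), which was not used here except to check the counts, and FPKM values, which were used for levels only. Groups were taken from the labels. The counts were tested with edgeR 4.0.16 in R 4.3.3, as 1 quasi-likelihood fit of 12 group means to the 11954 genes that passed filterByExpr, scaled by TMM, and 19 contrasts adjusted by Benjamini-Hochberg. Normalized counts in the text are raw counts over the TMM effective library size, times its mean (13279120). CPM in the correlations carry a prior count of 2 on the log2 scale.

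The members, gene lists and tests were chosen with earlier results of these data known. Named genes are, in each comparison, the 6 called members with the largest change each way, the heat-inducible list, the 6 members of highest FPKM, members called in more than 1 banding comparison, those whose response differed between ventricles, and members near the minimum count. The functions were tested on simulated data. Library depths give the precision of low members, and the counts carry no molecular identifiers.

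By the labels an RV and an LV library of 1 number come from 1 animal. Their deviations from the group means had a median r of 0.186 to 0.297 per condition, against -0.069 to -0.014 for other animals, so the ventricles are paired. Numbers shared by banded and sham animals name different animals, with males before females in each group. Alternatives were RLE factors, no filter, DESeq2 1.42.0, the study's criteria (absolute log2 change over 1, p at most 0.01, mean over 50), sex as a covariate, fits on the groups compared, blocks by animal or number, and omission of each library. Omission of the 4 libraries that stand apart was chosen after seeing the data.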

Additional observations from a re-analysis of the deposited data

Results flagged for a closer look

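Among 19 members described library by library, 228 pairs of gene and group were examined with Dixon's criterion, and 48 libraries lay far from the others of their group. Chance flags about 1 in 20 groups, and libraries of 1 group share their flags over genes. Values are normalized counts.

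Most came from a few LV libraries. LV PAB-H 2 was low for Cct8 (305), Cct6a (329), Cct3 (1160.9), Hspd1 (846), Hspa9 (1607.6), Hsp90b1 (497), Hspa5 (2254.7), Hsp90ab1 (12526) and Dnajc28 (107), and high for Hspa12b (2549). LV PAB-F 5 was high for Cct8 (1119.5), Cct6a (770), Cct3 (2208.7), Cct7 (1399), Hspd1 (3302.9), Hspa9 (6371.9), Hsp90b1 (2281.3), Hspa5 (7472.8), Hspa8 (13123) and Dnajc28 (281). LV Sham-F 3 was high for Cct8 (956), Cct3 (1659.5), Cct7 (1499.6) and Hsp90b1 (2559.9). LV AOB-F 3 was low for Hsp90ab1 (10166).

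For the inducible genes, LV Sham-F 9 was high for Hspa1a (3366.9), Hspa1b (1978.2) and Dnajb1 (3780.4). Animal 6 of AOB-H stood out in both ventricles. Its LV library was high for Hspa1a (1742), Hspa1b (1133.2) and Hspa12b (3743.8) and low for Cct3 (1381.6), Cct7 (1268), Hsp90ab1 (13468) and Hspb7 (9349.7), and its RV library was high for Hspa1a (1454.3), Hspa1b (778), Dnajb1 (1066.6) and Hspa12b (1266.6) and low for Cct3 (1912.4).

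Other RV libraries were flagged for fewer genes. RV Sham-H 2 was low for Cct8 (1957.3) and Hspa5 (8013.2), RV Sham-H 7 was high for Hspb1 (6963.4), and RV PAB-F 4 was high for Cct7 (1769.2) and Hsp90ab1 (20874). Dnajc28 was low in RV Sham-F 1 (416) and RV PAB-F 1 (238) and high in RV AOB-F 2 (591).

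The change with age differed between the ventricles of sham animals by the test of the difference itself (edgeR, RV minus LV, log2) for Cct6a (1.24), Cct7 (0.376), Cct8 (1.43), Dnajb4 (1.45), Dnajc2 (1.14), Dnajc28 (1.36), Hsp90ab1 (0.475), Hspa4l (1.08), Hspa8 (0.887), Hspd1 (1.2) and Hsph1 (0.739), in which the RV change was the more positive one. The RV change was the more negative one for Dnajb1 (-0.834), Dnajc17 (-0.94), Hspa12b (-0.854), Hspa1a (-0.994), Hspb1 (-0.735) and Hspb2 (-0.707). Of 32 omissions of a library, 19 ended the call of Hsph1, 17 that of Hspb1, 11 that of Hspa1a, 10 that of Dnajb1 and 7 that of Hspa12b.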

How the results depend on the processing

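Of 178 results for single genes, refitted 4371 times in all, 4057 refits kept the direction and the side of the threshold, 33 came to pass it, 211 no longer passed it and 70 changed sign. The changes of sign were in 17 results, all of banding and none past the threshold in either fit, whose values are given at the end. Under the study's criteria the members called were 0 in RV PAB-H, RV PAB-F and LV AOB-F, 1 between the ventricles of Sham-H, 28 in Sham-F, 22 in PAB-F and 17 in AOB-F, and 11 for age in the LV. Of all 11954 genes these criteria called 217, 227 and 145 upon banding, in the order given. Between the ventricles they called 338, 3306, 2030 and 2613, and for age in the LV 962. On the groups compared alone the members called were 10 in RV PAB-H, 18 in RV PAB-F, 0 in LV AOB-F and 7 between the ventricles of Sham-H. The last of these stood beside 1499 of 10929 genes. RLE factors, no filter and sex as a covariate each left 0 in RV PAB-H. The cause was not tested. With the animal as a block, which uses the pairing, 28 were called between the ventricles of Sham-H, 1 in PAB-H and 5 in AOB-H, and no other comparison of the ventricles moved by over 1.5 times. With the number as a block, 10 were called in RV PAB-H (1256 of 11009 genes), 0 in LV AOB-F and 31 for age in the LV (4338 of 11233 genes). In RV PAB-F it called 4 (1238 of 11067 genes), Hspa1a and Hspa1b among them. The number names different animals in the groups compared and runs from males to females, so it holds part of the sex. Deviations of libraries that share a number had a median r of -0.103 to 0.16 per comparison. Without the 4 libraries that stand apart 6 were called in RV PAB-F (2128 of 11983 genes).

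Leaving out 1 library at a time, members called ranged from 0 to 1 in RV PAB-H, 0 to 5 in RV PAB-F and 5 to 23 in LV AOB-F. Between the ventricles they ranged from 4 to 27 in Sham-H, 62 to 66 in Sham-F, 50 to 59 in PAB-F, 1 to 3 in AOB-H and 54 to 61 in AOB-F. For age in the LV they ranged from 41 to 55, and for its difference between ventricles from 29 to 47. The remaining 9 comparisons stayed at 0. Depth limits the members of low count most, such as Dnajb3 with a mean raw count of 13.6.

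The log2 changes that changed sign when 1 library was left out had these ranges. In LV AOB-F they were -0.0912 to 0.309 for Dnaja1 (0.0201 with all libraries), -0.366 to 0.226 for Hspa1a (-0.221 with all libraries), -0.28 to 0.46 for Hspa1b (-0.143 with all libraries), -0.0618 to 0.141 for Hspa4l (0.0708 with all libraries), -0.118 to 0.0389 for Hspb6 (-0.0401 with all libraries), -0.0479 to 0.119 for Hspb8 (0.0222 with all libraries) and -0.0649 to 0.146 for Hspe1 (0.0126 with all libraries). In RV PAB-H they were -0.0816 to 0.112 for Dnaja1 (0.0232 with all libraries), -0.0135 to 0.101 for Dnajb1 (0.0234 with all libraries), -0.108 to 0.172 for Hsp90aa1 (0.0627 with all libraries), -0.267 to 0.00592 for Hspb1 (-0.169 with all libraries), -0.0761 to 0.0904 for Hspb7 (0.0032 with all libraries) and -0.127 to 0.00357 for Hsph1 (-0.0898 with all libraries). In RV PAB-F they were -0.0856 to 0.104 for Dnajb1 (-0.00976 with all libraries), -0.0527 to 0.132 for Hspa4l (0.0558 with all libraries), -0.0123 to 0.177 for Hspb6 (0.108 with all libraries) and -0.0575 to 0.148 for Hspb7 (0.0783 with all libraries). With no filter on low counts the value was -0.0183 for Dnaja1 in LV AOB-F, -0.0245 for Dnaja1 in RV PAB-H, -0.0277 for Dnajb1 in RV PAB-H, -0.0102 for Hspa4l in RV PAB-F, -0.0371 for Hspb7 in RV PAB-H, -0.00489 for Hspb8 in LV AOB-F and -0.0125 for Hspe1 in LV AOB-F. On the groups compared alone the value was -0.0271 for Dnaja1 in LV AOB-F, -0.0125 for Hspb8 in LV AOB-F and -0.023 for Hspe1 in LV AOB-F. With sex as a covariate the value was -5.6e-06 for Dnajb1 in RV PAB-H, -0.0134 for Hspb7 in RV PAB-H and -0.00979 for Hspb8 in LV AOB-F. With the number as a replicate block the value was 0.157 for Hspa1a in LV AOB-F, 0.426 for Hspa1b in LV AOB-F, -0.0315 for Hspa4l in LV AOB-F, -0.0245 for Hspb8 in LV AOB-F and -0.0432 for Hspe1 in LV AOB-F. Without the libraries that stand apart the value was 0.0284 for Hspb6 in LV AOB-F, -0.00725 for Hspb7 in RV PAB-H and -0.0745 for Hspe1 in LV AOB-F. With DESeq2 the value was -0.0114 for Hspb7 in RV PAB-H. With RLE factors the value was -0.0114 for Hspb7 in RV PAB-H.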

Other observations

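Hsp90aa1, a heat-inducible gene that is usually abundant, had the lowest FPKM of the 77 members (0.484) beside 569 for Hsp90ab1. Its mean normalized counts were 39.8 in RV Sham-F and 19.7 in LV Sham-F, 69 in RV PAB-F and 23.1 in LV PAB-F. How reads of this gene were assigned by the annotation was not examined here.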
